A study of Mus musculus with 4 samples.

Results

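The 41 genes described here encode the enzymes and regulators that remove superoxide, peroxides and reactive electrophiles in mouse tissue, with the genes of glutathione synthesis and use and the metallothioneins. They were taken by symbol from the deposited gene table of 55401 genes, and all 41 were found in it. The table holds 4 RNA sequencing libraries of mouse heart, each taken at day 28 after surgery. The 2 Sham libraries came from mice whose chest was opened without a ligation, and the 2 MI libraries from mice given the ligation operation that causes a myocardial infarction. The design text describes the material as infarcted heart tissue and uninjured left ventricle. Strain, sex and age were not given in the sources used here, and although the series title names cyanidin, a plant flavonoid, no compound is named in the labels of these 4 libraries. Nothing in the labels says whether replicates were separate animals, so the p-values below measure only the spread between these samples, which may be technical.

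As background, superoxide dismutases turn superoxide into hydrogen peroxide, which catalase, the glutathione peroxidases and the peroxiredoxins reduce further. The glutathione peroxidases are fed by glutathione and its reductase, most peroxiredoxins by thioredoxin and thioredoxin reductase, and glutathione S-transferases join glutathione to electrophiles. Many of these genes are targets of the transcription factor NRF2 (Nfe2l2), which KEAP1 holds at a low level until oxidants or electrophiles modify it, and in the heart the mitochondria of cardiomyocytes are a main source of the oxidants. Metallothioneins bind zinc and copper, respond to the metal-sensing factor MTF1 and to glucocorticoids, and can also scavenge oxidants.

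The upstream sequences of the metallothioneins are shown because these 2 neighbouring genes had among the largest differences, and Gstk1 because it was the mitochondrial member with the largest one. Each line gives the 250 bases before the RefSeq start (assembly GRCm38.p6, plus strand, 5′ to 3′), with matches to the letters of the metal response element core (TGCACNC or TGCGCNC, either strand) or the antioxidant response element core (TGACNNNGC, either strand) in capitals. Mt2 spans chr8:94172368-94172617, Mt1 chr8:94178839-94179088 and Gstk1 chr6:42245685-42245934.
Mt2: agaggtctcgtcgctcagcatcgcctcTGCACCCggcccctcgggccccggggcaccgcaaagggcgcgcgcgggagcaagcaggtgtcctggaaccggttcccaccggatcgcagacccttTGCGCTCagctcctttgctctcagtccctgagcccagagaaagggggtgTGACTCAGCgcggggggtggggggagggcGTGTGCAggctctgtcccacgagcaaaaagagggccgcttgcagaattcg
Mt1: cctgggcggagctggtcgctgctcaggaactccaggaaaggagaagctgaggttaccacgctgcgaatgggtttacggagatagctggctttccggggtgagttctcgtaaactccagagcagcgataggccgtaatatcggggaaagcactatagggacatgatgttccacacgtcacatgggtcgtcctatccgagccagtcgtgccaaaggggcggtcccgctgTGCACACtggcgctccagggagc
Gstk1: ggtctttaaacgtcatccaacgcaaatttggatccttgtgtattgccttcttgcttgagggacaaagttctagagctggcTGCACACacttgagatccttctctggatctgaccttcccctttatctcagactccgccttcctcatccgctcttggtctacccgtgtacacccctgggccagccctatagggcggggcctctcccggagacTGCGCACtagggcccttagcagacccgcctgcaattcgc
The Mt2 window held 3 metal response core matches, which begin 223, 128 and 50 bases before the start, and 1 antioxidant response core match 79 bases before it. Mt1 had 1 metal response match, 23 bases before its start, and Gstk1 had 2. For the 5 other members at an unadjusted p under 0.05 (defined below) with a match, the matched bases are given in capitals with 10 bases on each side, the Txnrd1 and Mgst1 sites being antioxidant response matches and the Srxn1, Gstm1 and Gpx7 sites metal response matches. Gpx7 is the only one of these genes that was higher in MI.
Txnrd1: ctggatttttGCTTTGTCAttctgacacg
Mgst1: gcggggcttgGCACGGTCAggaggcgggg
Srxn1: cgcgtccattGAGCGCAtcgcgagggg
Gstm1: ctgtttcagcGTGTGCAaaacagaatc
Gpx7: attaagtctcTGCGCCCtgagcttgag
Windows were given for 35 of the 41 members, 44 windows in all since some genes have several starts. The 6 members without a window, which could not be searched, were Hmox1, Gclc, Gsr, Gsta4, Prdx6 and Sod3. The antioxidant response core occurred in 9 of the 44 (20.5%), against 10.2% of all 32851 promoter windows. The genes that held it were Txnrd1, Mgst1, Mt2, Nfe2l2, Gclm, Prdx1, Sod1, Gsta3 and Gstm5. The metal response core in the form above occurred in 12 of the 44 (27.3%), against 21.4% of all windows, and in its loose form TGCNCNC in 45.5% against 44.4%. The stricter form was chosen after the loose form had been counted. Some matches of the 2 cores overlap, as in Gclm, and a match is a run of letters, not a bound site.

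On the authors' FPKM scale, which corrects for gene length, the mean level of the members over the 4 libraries ran from 1.35 for Gsta3 to 210.5 for Mt2. The 6 members with a mean above 100 FPKM were Mt2, Gpx4, Mt1, Txnip, Mgst3 and Gpx3, and 12 members lay under 10. The order at the top differed between the groups. By FPKM, Mt2 ranked 1 among the 41 in both Sham libraries and 6 and 5 in MI 1 and MI 2. Txnip, whose protein binds and inhibits thioredoxin, ranked 4 in both Sham libraries and 1 and 2 in MI 1 and MI 2. Hmox1 ranked 18 and 21 in Sham 1 and Sham 2 and 29 in both MI libraries, whereas Cat ranked 10 in all 4. All members together took 0.319%, 0.286%, 0.328% and 0.277% of the summed FPKM in Sham 1, Sham 2, MI 1 and MI 2, so their total did not separate the groups.

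**Figure D1:**
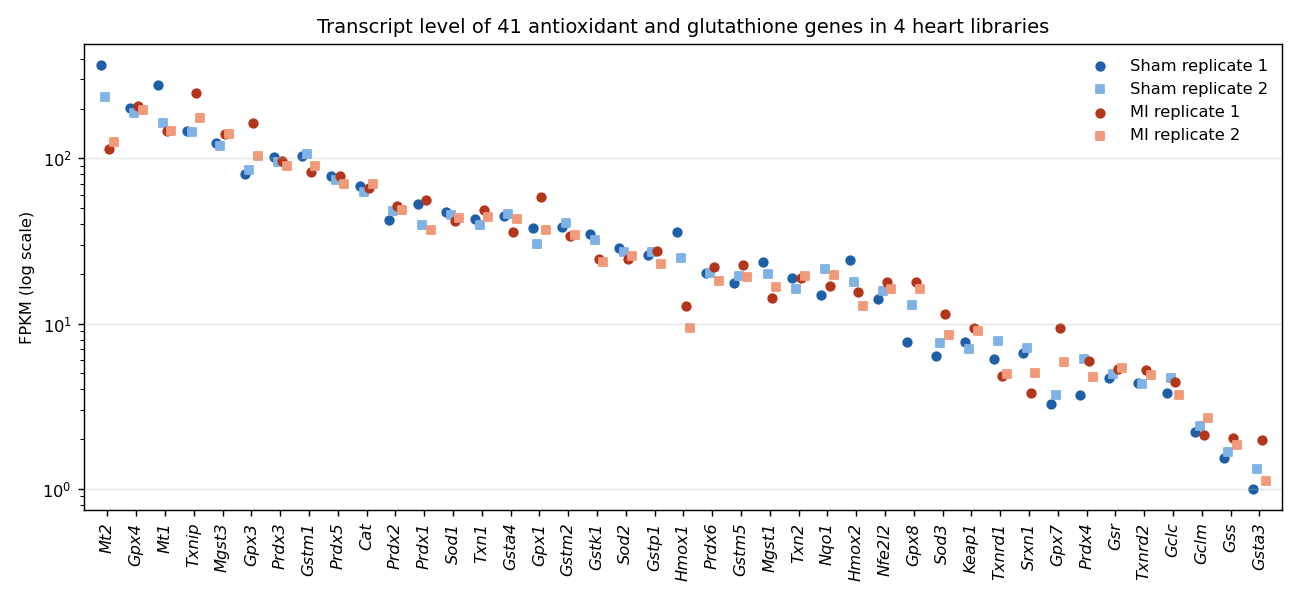
FPKM of each of the 41 members (log axis) in the 4 libraries, ordered by mean level; circles are replicate 1, squares replicate 2, blue Sham and red MI. Mt2, Hmox1 and Srxn1 have both MI points below both Sham points, and Gpx3, Gpx7 and Txnip have both above.

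Library totals ran from 66624106 to 75979320 estimated counts, and transcripts of mitochondrial DNA took 27.3% to 34.0% of them. Cardiomyocyte markers were detected in every library, at a summed 64020 and 57520 CPM (library-scaled counts) in Sham and 45440 and 51170 in MI. Fibroblast markers summed to 688 and 901 CPM in Sham against 3180 and 1930 in MI, with all 7 higher in both MI libraries. A pair of libraries stood apart from their labels' tissue. MI 1 carried lung epithelial markers at a summed 266 CPM, against 1.29 to 3.51 in the others, with all 10 markers detected there and 7, 5 and 5 at 0 in Sham 1, Sham 2 and MI 2. In Sham 2 the atrial marker Myl7 reached 743 CPM, against 0.271 to 0.683 elsewhere. The sum of 7 atrial markers was 198, 5631, 2196 and 1737 CPM in Sham 1, Sham 2, MI 1 and MI 2. Of these sums, Nppa alone gave 162, 3396, 2174 and 1717 CPM. All 7 adipocyte markers were detected in Sham 2, where 5, 5 and 3 were at 0 in Sham 1, MI 1 and MI 2. Endothelial markers summed to 1375 and 1337 CPM in Sham against 1612 and 1576 in MI, macrophage markers to 240.0 to 346 over the 4 libraries, smooth muscle markers to 253 to 401 and hepatocyte markers to 14.3 to 43.7. The part of these tissues in the results below was not tested. Erythroid markers summed to 16310, 5585, 7923 and 10790 CPM in Sham 1, Sham 2, MI 1 and MI 2.

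The largest differences between MI and Sham among the members were in the inducible heme oxygenase Hmox1 and the metallothionein Mt2, both lower in the MI libraries, and in the endoplasmic reticulum peroxidase Gpx7, which was higher. Thioredoxin reductase Txnrd1, sulfiredoxin Srxn1, the second heme oxygenase Hmox2, the metallothionein Mt1 and the glutathione S-transferases Gstk1, Mgst1, Gstm1 and Gstm2 were lower at an unadjusted p under 0.05 (edgeR, quasi-likelihood test). None of the 41 passed the test after adjustment over all 18475 genes tested, and the smallest adjusted p of a member was 0.225, for Hmox1. No gene of the whole table passed it either (0 of 18475, 0.0%, smallest adjusted p 0.185), while 2150 genes were at an unadjusted p under 0.05. DESeq2, a second count model, called 635 genes at an adjusted p under 0.05, and limma on log2(FPKM + 1) called 0. In bulk tissue, fewer cells of a type and less RNA per cell cannot be told apart, and this holds for every difference below.

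At an unadjusted p under 0.05, 10 of the 41 members were lower in MI, where 4.51% of all genes were, and 1 was higher, where 7.12% of all genes were. That is 24.4% of the members in the lower direction and 2.44% in the higher. DESeq2 called 5 members lower (Hmox1, Mt2, Txnrd1, Gstk1 and Hmox2; 12.2%), against 1.49% of the genes it gave an adjusted p, and no member higher, against 2.58%. In CPM, 20 members (48.8%) had both MI values under both Sham values, against 21.9% of all genes, and 6 (14.6%) had both above, against 24.9%. The authors' FPKM gave another split, with 13 members (31.7%) below, against 8.89% of all genes, and 14 (34.1%) above, against 39.0%. CPM here was scaled by edgeR's TMM factors, which were 0.877 and 0.975 in Sham and 1.15 and 1.02 in MI, and the deposited FPKM was used as it stood. The median log2 difference of the members (MI minus Sham) was -0.17 in the edgeR fit, beside 0.00 for all genes tested. It was -0.04 for the 9573 genes tested with a mean FPKM at or above that of the lowest member. That set was bounded only below, so it was not matched to the members' levels. On the FPKM scale the members' median was 0.04, beside 0.10 for all genes and 0.15 for the 9573. Without MI 1, which held the lung transcripts, the members' median was -0.155, beside 0.006 for all genes tested. Without Sham 2 it was -0.265, beside 0.031. The number of genes at an unadjusted p under 0.05 changed with the library left out, among the members and over the whole table. It was lowest without MI 1 in both, and most of the 11 members called were not called then. The direction of the 11 members at an unadjusted p under 0.05 was the same in all 14 other settings tried. This was nearly fixed in advance, since their groups did not overlap in CPM and every setting used the same libraries. Of the 41 members, 9 are overlapped by another gene model at 1 FPKM or more, and their counts are uncertain because the strand setting was not stated.

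**Figure D2:**
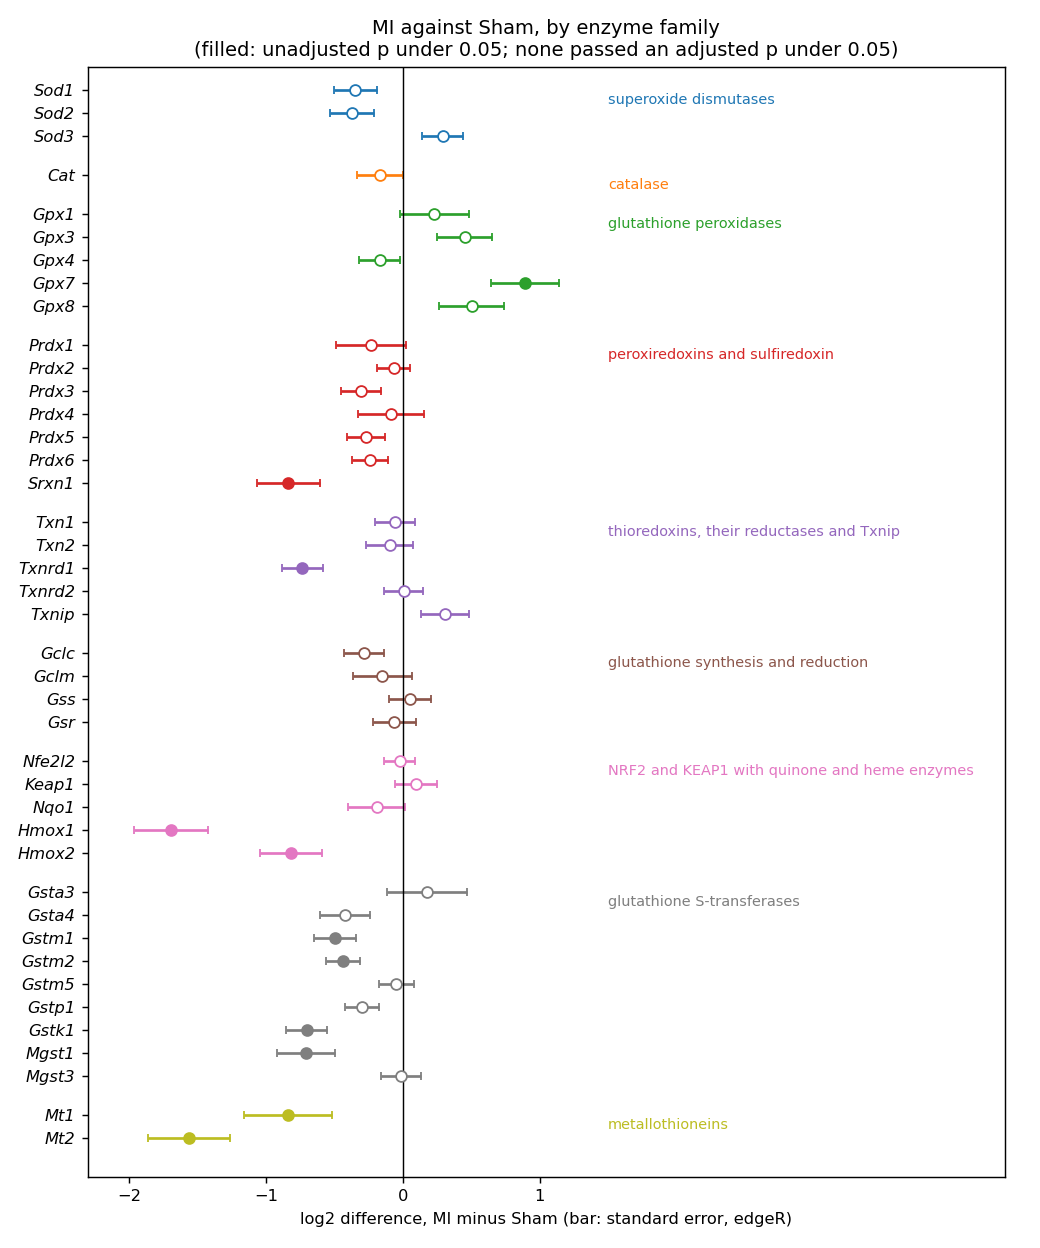
The log2 difference of each member, MI minus Sham, with its standard error from edgeR; colours mark enzyme families and filled points an unadjusted p under 0.05. Hmox1 at -1.70 and Mt2 at -1.56 lie farthest to the left, and Gpx7 at 0.89 farthest to the right.

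In the edgeR fit, the log2 differences of the regulators' own transcripts were among the smaller ones of the members. Nfe2l2, which encodes NRF2, was at 65.8 and 66.6 CPM in Sham against 64.4 and 65.9 in MI. These ranges overlapped, and the log2 difference was -0.02 ± 0.11 (SE). Keap1, its inhibitor, was at 45.0 and 37.0 CPM in Sham against 42.3 and 45.4 in MI, with a log2 difference of 0.10 ± 0.15. On the FPKM scale the Keap1 to Nfe2l2 ratio was 0.553 and 0.450 in Sham and 0.531 and 0.558 in MI, which overlap. Nqo1, a quinone reductase widely used as an NRF2 target, was at 28.9 and 36.9 CPM in Sham against 24.9 and 32.7 in MI, and again the groups overlapped. On the FPKM scale both MI values were above both Sham values for Nfe2l2 and Keap1, as for 39.0% of all genes. Their log2 differences there were 0.18 and 0.29, beside a median of 0.15 for genes at or above the lowest member's mean FPKM. Transcript levels do not report NRF2 protein, which is controlled largely by its degradation.

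Hmox1, which opens the heme ring and is induced by heme and oxidants, is listed as ENSMUSG00000005413 at chr8:75093621-75100589. It was at 78.0 and 48.5 CPM in Sham 1 and Sham 2 and 21.4 and 17.7 in MI 1 and MI 2. Both MI values were under both Sham values, and the means (63.3 ± 20.9 CPM in Sham and 19.5 ± 2.66 in MI, SD) lay farther apart than either SD. The log2 difference was -1.70 ± 0.27 (edgeR, adjusted p = 0.225), a ratio of 0.309, and DESeq2 gave an adjusted p of 2.69e-06. Leaving out 1 library at a time gave -1.999 to -1.31. Hmox2, the constitutive enzyme, was at 66.5 and 44.5 CPM in Sham against 32.9 and 30.2 in MI, a log2 difference of -0.82 ± 0.23 (edgeR, adjusted p = 0.341; DESeq2 adjusted p = 0.0479). It was -0.49 without Sham 1, the higher of the Sham libraries. Hmox2 shares its locus with Cdip1 on the opposite strand, and whether the counting used strand was not stated, so its counts are uncertain. The erythroid marker sum was highest in Sham 1 and lowest in Sham 2, and its part in the Hmox1 values was not tested. Over all genes tested, 7.12% were higher and 4.51% lower at an unadjusted p under 0.05. Among 10 genes of heme and iron handling, 0 were higher and 1 was lower at that threshold. That gene was ceruloplasmin, Cp, a copper-carrying ferroxidase, at 86.6 and 105 CPM in Sham against 55.5 and 72.4 in MI (log2 difference -0.58 ± 0.19). Ferritin heavy chain, Fth1, the most abundant of that list, had a log2 difference of -0.26 ± 0.18, and the list's median was -0.14.

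Both metallothioneins were lower in the MI libraries, Mt2 more than Mt1. Mt2 (ENSMUSG00000031762, chr8:94172664-94173568) was at 267 and 155 CPM in Sham against 64.3 and 78.6 in MI. Its groups did not overlap, with 211 ± 78.9 CPM in Sham and 71.4 ± 10.1 in MI (SD). The log2 difference was -1.56 ± 0.30 (edgeR, adjusted p = 0.275; DESeq2 adjusted p = 4.35e-05), and it stayed between -1.90 and -1.12 when 1 library was left out. Mt1 (ENSMUSG00000031765, chr8:94179082-94180327), which follows Mt2 on the same strand, was at 429 and 229 CPM in Sham against 174 and 195 in MI. Sham 1 stood well above the other 3 libraries, and the log2 difference of -0.84 ± 0.32 (edgeR, adjusted p = 0.428) was -0.31 without it. The ratio of Mt2 to Mt1 in FPKM, which does not depend on library scaling, was 1.32 and 1.44 in Sham and 0.785 and 0.855 in MI. Mt2 overlaps the gene model Gm45774 on the opposite strand, which was at 8.72 and 12.5 FPKM in Sham and 2.88 and 3.12 in MI, and reads of the 2 cannot be told apart if strand was not used. Of the 4 metal-response genes tested beside them, the zinc and iron carrier Slc39a14 was lower at an unadjusted p under 0.05, at 115 and 75.1 CPM in Sham against 61.3 and 58.9 in MI, and none was higher. Among 10 glucocorticoid-responsive genes 3 were lower and 0 higher at that threshold, where 4.51% and 7.12% of all genes were. Of the 10, 7 had a negative and 3 a positive log2 difference, and the median was -0.44, or -0.17 on the FPKM scale. The 3 lower ones were the kinase Sgk1 (-0.68 ± 0.15, DESeq2 adjusted p = 0.0116), the NF-kappaB inhibitor gene Nfkbia (-0.61 ± 0.18) and the cell cycle inhibitor Cdkn1a (-0.94 ± 0.36). Cdkn1a was at 190 and 92.2 CPM in Sham against 68.5 and 78.2 in MI, with Sham 1 far above the rest. Pdk4, the most abundant of that list, was at 1982 and 1397 CPM in Sham against 973 and 1337 in MI, Sham 1 again being the highest, while Fkbp5 and Tsc22d3, 2 widely used glucocorticoid targets, had log2 differences of 0.10 and 0.34.

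**Figure D3:**
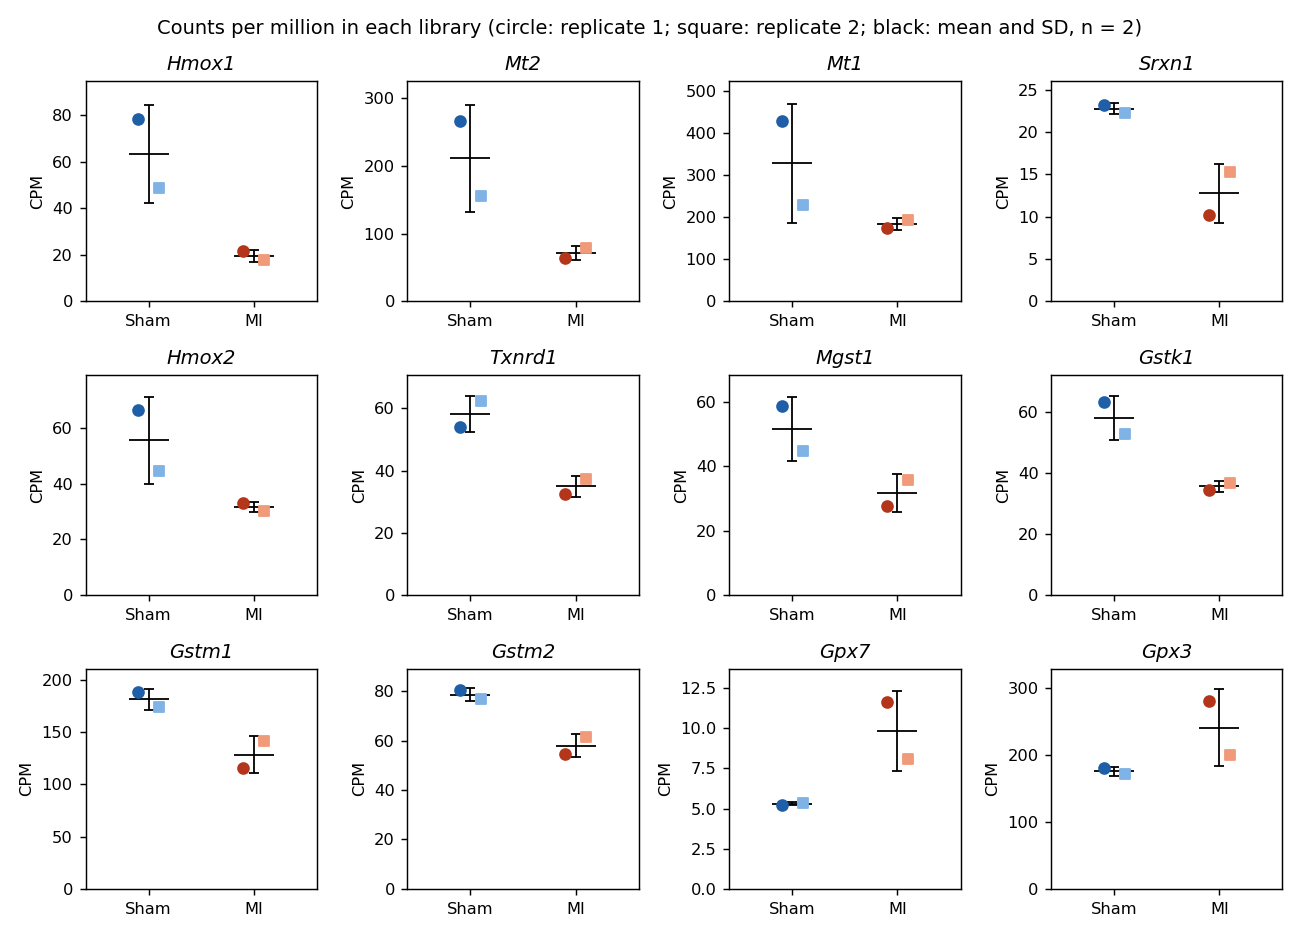
CPM, scaled by TMM factors, in each library for the 11 members at an unadjusted p under 0.05 and for Gpx3; each panel's axis starts at 0, and the black marks are the mean and SD of 2 libraries. In 10 panels both MI points lie under both Sham points, and in the Gpx7 and Gpx3 panels both lie above.

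In the thioredoxin system, 1 of 5 genes was at an unadjusted p under 0.05, where 4.51% of all genes were lower and 7.12% higher. Txnrd1, the cytosolic thioredoxin reductase (ENSMUSG00000020250, chr10:82833951-82897712), was at 54.0 and 62.2 CPM in Sham against 32.5 and 37.3 in MI. The groups did not overlap, and the log2 difference was -0.73 ± 0.15 (edgeR, adjusted p = 0.286; DESeq2 adjusted p = 0.00915), a ratio of 0.601. Its mitochondrial counterpart Txnrd2 was at 23.9 and 21.3 CPM in Sham against 22.2 and 23.2 in MI, with a log2 difference of 0.01 ± 0.14 that took either sign across settings. In FPKM, Txnrd1 over Txnrd2 was 1.41 and 1.82 in Sham against 0.911 and 1.0 in MI. Thioredoxins Txn1 (cytosolic) and Txn2 (mitochondrial) overlapped between the groups in CPM, with log2 differences of -0.06 and -0.10 that changed sign on the FPKM scale. Txnip was at 564 and 504 CPM in Sham against 741 and 584 in MI, above Sham in both, with a log2 difference of 0.31 ± 0.18 (edgeR, adjusted p = 0.551) that was 0.14 without MI 1. In FPKM, Txnip over Txn1 was 3.38 and 3.67 in Sham and 5.11 and 3.96 in MI. Of 6 Txnip relatives and glucose-sensing factors, 0 were at an unadjusted p under 0.05. The smallest p of that list was that of Arrdc2, an arrestin-domain gene and the most abundant of the list, at 67.0 and 30.0 CPM in Sham against 31.8 and 25.7 in MI.

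Among the 6 peroxiredoxins, which reduce peroxides through a reactive cysteine, and sulfiredoxin, which repairs them when that cysteine is over-oxidised, all 7 had a negative log2 difference in the edgeR fit, but Prdx1, Prdx2 and Prdx4 turned positive on the FPKM scale and the family median went from -0.24 to -0.02. Srxn1, the sulfiredoxin, was at 23.2 and 22.3 CPM in Sham against 10.3 and 15.3 in MI. Its groups did not overlap on either scale, with a log2 difference of -0.84 ± 0.23 (edgeR, adjusted p = 0.341). Without MI 1 it was -0.57 and no longer at an unadjusted p under 0.05. Prdx3, the mitochondrial peroxiredoxin and the most abundant of the family by FPKM, was at 187 and 156 CPM in Sham against 136 and 141 in MI, a log2 difference of -0.31 ± 0.15 (edgeR, adjusted p = 0.491) that was -0.17 without Sham 1. Srxn1 over Prdx3 in FPKM was 0.0650 and 0.0746 in Sham and 0.0394 and 0.0565 in MI. Prdx5 and Prdx6 were also lower in both MI libraries in CPM (log2 differences -0.27 and -0.24), and in FPKM their groups overlapped. Prdx1 was highest in replicate 1 of each group, at 199 and 133 CPM in Sham against 162 and 121 in MI. Prdx2, abundant in red cells, was at 161 and 163 CPM in Sham against 150 and 158 in MI. The erythroid marker sum ranged over 5585 to 16310 CPM, and its part in the Prdx2 values was not tested.

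None of the 3 superoxide dismutases was at an unadjusted p under 0.05. Sod1, the cytosolic enzyme, was at 234 and 203 CPM in Sham against 158 and 186 in MI, and Sod2, the mitochondrial one, at 357 and 303 in Sham and 236 and 274 in MI. Both were lower in both MI libraries on the CPM and FPKM scales, with log2 differences of -0.35 ± 0.16 and -0.37 ± 0.16 (edgeR, adjusted p = 0.476 and 0.463). Their ratio, Sod2 over Sod1, was 0.607 and 0.593 in Sham and 0.594 and 0.585 in MI, and the groups overlapped. Sod3, the secreted enzyme of the extracellular matrix, was the reverse, at 29.4 and 31.7 CPM in Sham against 40.6 and 34.1 in MI, with a log2 difference of 0.29 ± 0.15 (edgeR, adjusted p = 0.521) and 0.17 without MI 1. Cat, the peroxisomal catalase, was at 220 and 184 CPM in Sham against 164 and 195 in MI, and the groups overlapped.

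The glutathione peroxidases were the family with most positive differences, 4 of 5, and their median log2 difference was 0.45 in the edgeR fit and 0.65 on the FPKM scale. Gpx7 (ENSMUSG00000028597, chr4:108400390-108406961), which acts in protein folding in the endoplasmic reticulum, was at 5.24 and 5.38 CPM in Sham against 11.6 and 8.07 in MI. Its Sham libraries were nearly equal and both MI libraries were above them, with a log2 difference of 0.89 ± 0.25 (edgeR, adjusted p = 0.343; DESeq2 adjusted p = 0.104). Without MI 1 it was 0.61 and no longer at an unadjusted p under 0.05. Gpx8, its membrane-bound relative, was at 10.1 and 15.2 CPM in Sham against 17.9 and 18.0 in MI (log2 difference 0.50 ± 0.24, or 0.24 without Sham 1 and 0.83 without Sham 2). Gpx3, the secreted plasma peroxidase, was at 181 and 171 CPM in Sham against 282 and 200.2 in MI. Both MI values exceeded Sham, MI 1 by far the more, and the log2 difference of 0.45 ± 0.20 (edgeR, adjusted p = 0.47) was 0.20 without it. Gpx4, which reduces lipid peroxides in membranes, was the most abundant of the family by FPKM in all 4 libraries, at 430.3 and 361 CPM in Sham against 342 and 362 in MI, and its groups overlapped. Gpx3 made up 24.3% and 26.5% of the family's FPKM in Sham and 35.6% and 28.8% in MI, and Gpx4 60.8% and 58.8% in Sham and 45.5% and 54.8% in MI. Gpx1, the cytosolic form, was highest in MI 1 at 80.7 CPM and lowest in Sham 2 at 48.7, with overlapping groups. The fibroblast marker sum was higher in both MI libraries, and highest in MI 1, as were Gpx7, Gpx3 and Sod3, and the lung marker sum was high in MI 1 alone. Their part in these differences was not tested.

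The 4 genes of glutathione synthesis and reduction were expressed at low levels, and none was at an unadjusted p under 0.05. Gclc and Gclm, the catalytic and modifier subunits of the rate-limiting ligase, had log2 differences of -0.28 ± 0.15 and -0.15 ± 0.21 in the edgeR fit. Gss, the synthetase, was at 0.05 ± 0.16 and Gsr, the glutathione reductase and the most abundant of the 4 by FPKM, at -0.06 ± 0.16. Gsr was at 16.0 and 15.2 CPM in Sham against 14.0 and 15.9 in MI, which overlap. The median of the 4 was -0.11 and turned to 0.08 on the FPKM scale, and Gclc over Gclm ranged from 1.37 to 2.08 with overlapping groups. Over all genes tested, 7.12% were higher and 4.51% lower at an unadjusted p under 0.05. Of 19 tested genes of glutathione transport, breakdown and glutaredoxins, 1 was higher and 2 were lower at that threshold. The higher one was Cbs, cystathionine beta-synthase, which had 0 counts in both Sham libraries and 0.563 and 0.439 CPM in MI, so no fold change is given. The lower ones were the amino acid transporter subunit Slc3a2 (log2 difference -0.66 ± 0.19) and the mitochondrial glutathione importer Slc25a39 (-0.34 ± 0.12). Hagh, a glyoxalase and the most abundant of that list, was at 57.1 and 47.4 CPM in Sham against 50.8 and 51.0 in MI. The table's own annotation placed 64 genes in glutathione metabolism, of which 53 were tested and 18 are members. The 35 others tested had 12 positive and 23 negative differences and a median log2 difference of -0.11. At an unadjusted p under 0.05, 2 were higher and 4 lower, where 7.12% and 4.51% of all genes were.

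Of the 9 glutathione S-transferases, 8 had a negative log2 difference in the edgeR fit, and the median was -0.42, or -0.21 on the FPKM scale, where Gstm5 and Mgst3 turned positive. Gstk1, the mitochondrial and peroxisomal kappa-class enzyme (ENSMUSG00000029864, chr6:42245935-42250441), was at 63.2 and 52.9 CPM in Sham against 34.4 and 36.9 in MI. Its MI libraries lay close together and well under Sham, with a log2 difference of -0.70 ± 0.15 (edgeR, adjusted p = 0.292; DESeq2 adjusted p = 0.0122). Mgst1, a membrane-bound transferase with peroxidase activity, was at 58.6 and 44.6 CPM in Sham against 27.6 and 35.8 in MI, a log2 difference of -0.70 ± 0.21 (edgeR, adjusted p = 0.35). Gstm1, of the mu class, was at 188 and 174 CPM in Sham against 116 and 141 in MI. Gstm2, its neighbour, was at 80.4 and 76.7 CPM in Sham against 54.7 and 61.3 in MI. Neither pair of groups overlapped, and the log2 differences were -0.50 ± 0.15 and -0.44 ± 0.13 (edgeR, adjusted p = 0.363 and 0.344). Gsta4, which clears the lipid peroxidation product hydroxynonenal, had a log2 difference of -0.42 ± 0.18 (-0.22 without MI 1), and Gstp1, of the pi class, -0.30 ± 0.13, with edgeR adjusted p = 0.463 and 0.452. Mgst3, the most abundant of the family by FPKM, was at 169.5 and 146 CPM in Sham against 147 and 165 in MI, and Gstm5 at 26.3 to 28.1 CPM in the 4 libraries. Gsta3 was the lowest member of all, at 5.21 to 8.15 CPM. The Gstm, Gsta and Gstp genes lie in clusters of close copies, and how shared reads were divided among them was not stated, so single values within a cluster are uncertain. Outside the members, 15 other glutathione transferases were tested. At an unadjusted p under 0.05, 3 were lower (Gsta1 at -1.52, Gstp2 at -0.90 and Gstm7 at -0.65 on the log2 scale) and 1 was higher (Gstt3, 0.76). Over all genes tested, 4.51% were lower and 7.12% higher. Gsto1, the most abundant of the 15, was at 93.7 and 86.2 CPM in Sham against 77.1 and 84.4 in MI.

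Each member was given a single main location, although some proteins, such as that of Gstk1, occur in more than one. By this location, the 6 mitochondrial members (Sod2, Prdx3, Prdx5, Txn2, Txnrd2 and Gstk1) had a median log2 difference of -0.29, and the 24 cytosolic members one of -0.21. As a measure of spread, the median log2 CPM of these members relative to each gene's mean was taken in each library. Its SD between replicates, pooled over the groups, was 0.12 for the mitochondrial and 0.07 for the cytosolic members. The difference between the locations was not tested. Both MI libraries were below both Sham libraries in CPM for 4 of the 6 mitochondrial and 13 of the 24 cytosolic members, and above them for 0 and 2, where 21.9% of all genes were below and 24.9% above. In FPKM, 2 mitochondrial members were below and 2 above, and 8 cytosolic members below and 6 above, where 8.89% of all genes were below and 39.0% above. On the FPKM scale the medians were -0.06 and 0.01, so the cytosolic median changed sign with the scale while the mitochondrial one stayed below 0. Within mitochondria, Gstk1 was the outermost at -0.70 and Txnrd2 was at 0.01. The 7 members of the endoplasmic reticulum and other membranes ran from -1.70 (Hmox1) to 0.89 (Gpx7) in the edgeR fit, the widest range of any location. The 2 secreted members, Gpx3 and Sod3, had a median of 0.37 in the edgeR fit, the only location above 0 there, and of 0.55 on the FPKM scale, where the cytosolic, membrane, peroxisomal and nuclear medians were above 0 as well. Transcripts of mitochondrial DNA, which encode respiratory chain subunits and none of the members, took 34.0% and 32.6% of the counts in Sham and 27.3% and 30.9% in MI, and cardiomyocyte markers were negative for 7 of 8, with a median of -0.28. Their part in the mitochondrial members' values was not tested.

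**Figure D4:**
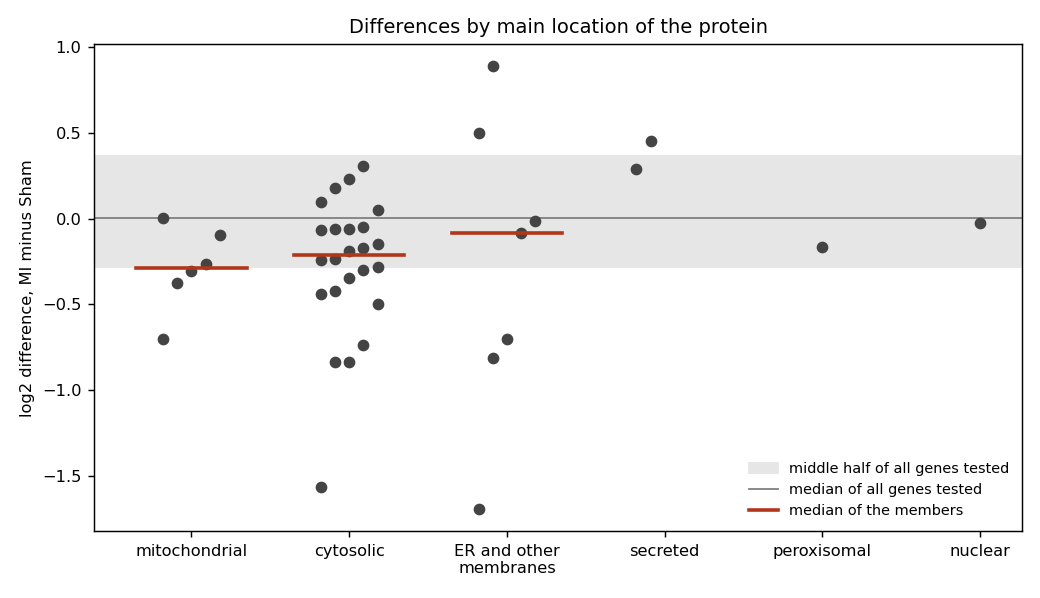
The log2 difference, MI minus Sham, of each member by main location of its protein; red lines are medians of groups with 6 or more members, and the grey band runs from the lower to the upper quartile of all genes tested. The mitochondrial and cytosolic medians, at -0.29 and -0.21, lie near the lower edge of the band, and both secreted members lie above 0.

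Ratios within a library do not depend on how the library was scaled. Of 10 ratios between related members, chosen after their values had been seen, 4 were lower in both MI libraries (Hmox1 over Hmox2, Txnrd1 over Txnrd2, Mt2 over Mt1 and Srxn1 over Prdx3), 2 were higher (Txnip over Txn1 and Gpx3 over Gpx4) and 4 overlapped. No share over other pairs of genes was counted beside them, so these numbers describe the 10 pairs only. Hmox1 over Hmox2 was 1.49 and 1.38 in Sham and 0.825 and 0.741 in MI, so the inducible enzyme was the higher of the pair in Sham and the lower in MI. Gpx3 over Gpx4 was 0.400 and 0.450 in Sham and 0.783 and 0.526 in MI. The ratios between mitochondrial and cytosolic forms, Sod2 over Sod1 and Txn2 over Txn1 (0.390 to 0.438), overlapped between the groups, and that of the reductases did not.

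**Figure D5:**
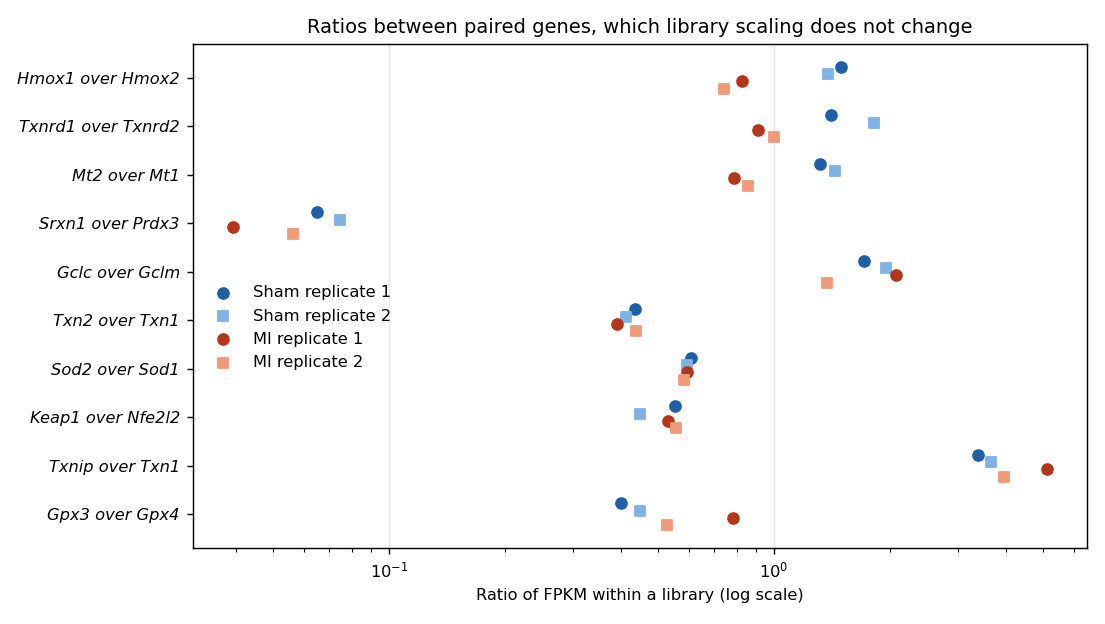
Ratio of FPKM between 2 members within each library (log axis); circles are replicate 1, squares replicate 2, blue Sham and red MI. In the top 4 rows both MI points lie left of both Sham points, and in the bottom 2 rows both lie to the right.

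Neighbouring genes of the redox network were described from lists of non-members. For NADPH supply, which feeds both reductases, 13 gene models were tested and 2 were lower and 0 higher at an unadjusted p under 0.05. Over all genes tested, 4.51% were lower and 7.12% higher, which applies to each list of this paragraph. Nadk2, the mitochondrial NAD kinase, was at 49.2 and 48.8 CPM in Sham against 20.0 and 29.1 in MI, with a log2 difference of -0.998 ± 0.21 (edgeR, adjusted p = 0.296; DESeq2 adjusted p = 0.00543). Me1, the cytosolic malic enzyme, was at 109.6 and 128 CPM in Sham against 86.1 and 90.8 in MI. Idh2, the most abundant of the list and a mitochondrial NADPH source, overlapped between the groups at 872 to 1255 CPM. Of 17 NRF2 partners and other NRF2 targets, none was at an unadjusted p under 0.05. The smallest p of that list was that of Sqstm1, an autophagy receptor that binds KEAP1 and its most abundant gene, at 286 and 283 CPM in Sham against 339 and 380.0 in MI. Of 14 methionine sulfoxide reductases, sestrins and selenoproteins, none was at an unadjusted p under 0.05 either. Msra, which repairs oxidised methionine, had the smallest p, at 38.2 and 14.9 CPM in Sham against 12.3 and 11.7 in MI, with Sham 1 far above the rest. Selenow, the most abundant, was at 93.5 to 103 CPM.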

How the data were processed

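Poly(A) RNA of mouse heart was made into strand-marked paired-end libraries, per the labels' protocols. The submitters' processing notes name StringTie 1.3.4d, HISAT2 2.0.4, UMI-tools and cutadapt 1.9, with no role given. The sources used here name neither a genome build nor the strand setting. The authors deposited, per the file headers, estimated counts and FPKM for each gene. Low counts pile up at multiples of 4 (1148 to 1174 genes a library have a count of 4, and 284 to 331 a count of 3). Of the members, 35 of 41 have the same start and end as in a GRCm38 annotation.

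Counts were tested with edgeR 4.0.16 (TMM scaling, filterByExpr with a minimum count of 10 and total of 15, quasi-likelihood test, two-sided, Benjamini-Hochberg adjustment over 18475 genes, biological coefficient of variation 0.368), on R 4.3.3. DESeq2 1.42.0 and limma 3.58.1 on log2(FPKM + 1), a fold change on which scale understates low genes, were alternatives, with 14 settings in all beside the first. Members, enzyme families, locations, pathway lists and marker lists were chosen with earlier results of these data known. All members are accounted for, and those at an unadjusted p under 0.05, the most abundant of each family by FPKM and the chief regulators are given in full. From each pathway list, the gene with the smallest p and the most abundant one by FPKM are named, with further genes of these lists chosen after their values were seen. Promoter windows and their coordinates come from RefSeq (GRCm38.p6), matched by symbol.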

Additional observations from a re-analysis of the deposited data

How the results depend on the processing

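The 11 members at an unadjusted p under 0.05 kept their direction in all 14 other settings, and the count was 9 to 12 with other scalings, filters and models. These members were picked in the same libraries and their groups did not overlap in CPM, so their direction could hardly have turned. When 1 library was left out, the number at an unadjusted p under 0.05 changed over the whole table as well as among the members. Both numbers were lowest without MI 1, the library with lung transcripts, where most of the 11 members were no longer called. DESeq2 called 635 genes of the whole table at an adjusted p under 0.05 (403 higher, 232 lower). With the replicate number as a block (replicate block) 9 members were at an unadjusted p under 0.05, Gstm1 and Mt1 no longer; the labels give same-numbered libraries nothing else in common, and their deviations correlated at -0.0561 over the genes tested, although they shared the gene model under which Nnt was counted. The medians of all, mitochondrial and cytosolic members were -0.027, -0.143 and -0.070 when counts were scaled to the total without mitochondrial transcripts, 0.036, -0.061 and 0.013 with limma on log2(FPKM + 1), and 0.048, -0.061 and 0.014 with log2(FPKM + 0.1). When 1 library was left out they ran from -0.27 to -0.13, -0.40 to -0.16 and -0.25 to -0.15. The same 3 scalings moved the median of all genes from 0.00 to 0.14, 0.10 and 0.20. Among genes at an unadjusted p under 0.05, they moved the share that was higher from 61.2% to 82.0%, 86.9% and 86.4%. The members' median minus that of genes at or above the lowest member's mean FPKM stayed between -0.22 and -0.11 in every setting. A change of scaling shifts all genes nearly alike and so cancels in this difference, and that set was not matched to the members' levels. Signs turned as follows. With limma on log2(FPKM + 1) and, second, log2(FPKM + 0.1), Cat was at 0.054 and 0.055, Gpx4 at 0.055 and 0.056, Prdx1 at 0.001 and 0.001, Prdx2 at 0.150 and 0.153, Prdx4 at 0.130 and 0.158, Txn1 at 0.165 and 0.168, Txn2 at 0.125 and 0.131, Gclm at 0.036 and 0.048, Gsr at 0.130 and 0.152, Nfe2l2 at 0.184 and 0.195, Nqo1 at 0.024 and 0.026, Gstm5 at 0.165 and 0.172 and Mgst3 at 0.205 and 0.207. Scaled to the total without mitochondrial transcripts, Prdx2 was at 0.070, Prdx4 at 0.045, Txn1 at 0.086, Txn2 at 0.047, Gsr at 0.075, Nfe2l2 at 0.114, Gstm5 at 0.093 and Mgst3 at 0.126. Txnrd2 was at -0.006 in DESeq2 and -0.018 with upper-quartile scaling, and Mgst3 at 0.009 with a mean FPKM of at least 1. Leaving out 1 library gave ranges that cross 0, of -0.492 to 0.087 for Prdx1, -0.193 to 0.093 for Txn1, -0.265 to 0.098 for Txn2, -0.117 to 0.098 for Mgst3, -0.336 to 0.224 for Prdx4, -0.075 to 0.095 for Txnrd2, -0.037 to 0.246 for Keap1, -0.041 to 0.495 for Gpx1, -0.412 to 0.090 for Gclm, -0.145 to 0.037 for Gsr, -0.030 to 0.001 for Nfe2l2, -0.389 to 0.001 for Nqo1, -0.173 to 0.475 for Gsta3 and -0.075 to 0.002 for Gstm5. The cause of each change was not tested. With 2 libraries a group, the lone library of a group was assumed to vary like the other group when 1 was left out, and the lowest member was at over 5 CPM in every library.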

Other observations

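Nnt, the mitochondrial transhydrogenase that makes NADPH for glutathione and thioredoxin reduction, is listed under 2 overlapping gene models. The model ENSMUSG00000025453 had 39413, 757, 36476 and 811 estimated counts in Sham 1, Sham 2, MI 1 and MI 2, and the model ENSMUSG00000116207 had 0, 36273, 0 and 33611. Their sums were 39413, 37030, 36476 and 34422, so both models together were similar in all 4 libraries while replicate 1 of each group was counted under one model and replicate 2 almost wholly under the other. The cause of the split was not tested.

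Nfe2l1, a relative of Nfe2l2 that controls proteasome genes, was at 362 CPM in Sham 1 and 79.4, 79.2 and 94.1 in Sham 2, MI 1 and MI 2, a log2 difference of -1.35 that rested on 1 library. Maff, a small MAF partner of NRF2, was spread as widely, at 20.0 and 45.8 CPM in Sham against 15.9 and 4.37 in MI. Ephx1, an epoxide hydrolase, was at 23.3 and 45.3 CPM in Sham against 60.8 and 59.9 in MI, above Sham in both MI libraries. These 3 genes were chosen after their values were seen.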
